A study of Homo sapiens with 6 samples.

Results

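Fibrinogen is the soluble plasma protein that thrombin converts into the fibrin mesh of a clot. Hepatocytes make it from 3 chains, alpha (FGA), beta (FGB) and gamma (FGG), which are folded in the endoplasmic reticulum and joined by disulfide bonds, so that a secreted molecule holds each chain in equal number. The chain genes lie side by side on chromosome 4, and interleukin-6 raises their transcription in the acute phase response. FGL1, or hepassocin, is a liver-secreted protein with a fibrinogen-related domain; it is known as a hepatocyte growth factor and as a ligand of the immune checkpoint receptor LAG3, and it is not part of fibrinogen. These 4 genes were taken from the deposited table by symbol, out of 23368 distinct genes, of which 14598 had enough reads to be tested; all 4 were tested.

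The cells were HepG2, an established human liver cancer line. Lentivirus made in HEK293T cells carried either a short hairpin RNA aimed at all variants of the long noncoding RNA CHROME (shCHROME, 3 libraries, a to c) or a non-targeting hairpin (EV, 3 libraries, a to c), both in the pLKO vector, and the labels call both hairpins stably expressed. The comparison asks which transcripts differ when CHROME is targeted. How far CHROME was lowered has no value here, since that transcript was not analysed here. A single targeting hairpin was used. No label ties the libraries to separate cultures; the spread behind each p-value is that between libraries and may be technical.

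Libraries held between 29188213 reads (EV replicate a) and 35429420 reads (EV replicate b) over all genes. Of 10 hepatocyte markers, all were detected, with summed levels of 1527817 to 1648666 normalized counts in EV and 1234956 to 1436418 in shCHROME, and 6 of them fell. Of 8 markers chosen for embryonic kidney cells, NEFL, NEFM and VIM were listed at 0 in each library and only CDH2 fell; of 6 blood and platelet markers, HBB, PPBP and PF4 were listed at 0. A gene listed at 0 in this table may have failed to be counted, so such a 0 is no evidence of absence. Over all genes tested, 10.5% changed at a limma adjusted p under 0.05, 3.64% being higher (532 genes) and 6.87% lower (1003 genes) in shCHROME; with libraries scaled to their totals, 936 were higher and 702 lower.

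The sequence before the start of each chain gene shows what the cluster shares beyond its position. CTGGGA, the core of the interleukin-6 response element, was found within 250 bases before the RefSeq start of all 3 chain genes, and in 28.8% of the 27305 promoters searched the same way on both strands. The 30 bases around it are given here 5′ to 3′ on the strand of the gene, from RefSeq (GRCh38.p14), with the motif in capitals.
FGA: gagcaagaatttCTGGGAtaccaacagcat
FGB: aaataagctttgCTGGGAagatgttgctta
FGG: tgtgtgcaaaatCTGGGAacctgacagtat
These stretches lie at chr4:154590852-154590881 (minus strand), chr4:154562856-154562885 (plus strand) and chr4:154612800-154612829 (minus strand). The motif began 127 bases before the start in FGA, 112 in FGB and 161 in FGG, and FGG held it once more on the opposite strand, 42 to 37 bases before the start.

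FGA and FGB also shared letters that FGG lacked in this window. A C/EBP match (TTGCNNAA on either strand, in 9.13% of promoters) and the HNF1 core (GTTAAT on either strand, in 6.22%) lay in both, the core at nearly the same distance, 52 bases before the start in FGA and 51 in FGB. A STAT match (TTCNNNGAA, in 6.78%) occurred in FGA, from 231 bases before its start, and neither the whole palindromic HNF1 site nor TATAAA occurred in any of the 3. The stretch from 150 to 31 bases before the start is shown for FGA (chr4:154590773-154590892, minus strand) and FGB (chr4:154562830-154562949, plus strand), with the interleukin-6, C/EBP and HNF1 core matches in capitals.
FGA: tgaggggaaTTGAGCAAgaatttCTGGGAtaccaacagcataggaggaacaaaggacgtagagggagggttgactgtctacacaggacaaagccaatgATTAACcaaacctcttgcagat
FGB: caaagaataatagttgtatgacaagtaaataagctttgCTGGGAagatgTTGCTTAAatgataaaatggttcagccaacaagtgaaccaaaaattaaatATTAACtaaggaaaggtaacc
In FGA the C/EBP match precedes the interleukin-6 motif, and in FGB it follows it. A match of letters is a description of the window and not evidence of a bound factor.

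FGL1 fell in shCHROME, while none of the 3 fibrinogen chains passed the test. That is 1 call among 4 members, against 10.5% of all genes tested. FGL1 stood at 5131, 4876 and 4682 normalized counts in EV replicates a, b and c. In shCHROME it stood at 4470, 3560 and 4283. Each shCHROME library lay below each EV library, as was so in one direction or the other for 28% of the genes tested, and shCHROME replicate b was the lowest of all. The means were 4896 ± 225 and 4104 ± 481 (SD, n = 3 per group), a 1.2-fold decrease (log2 fold change -0.26, 95% interval -0.42 to -0.11, limma adjusted p = 0.029).

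The call of FGL1 rested on single libraries. Its limma adjusted p was 0.128 without EV replicate a, 0.0584 without EV replicate b, 0.106 without shCHROME replicate b and 0.0585 without shCHROME replicate c, and it was 0.0627 with libraries scaled to their totals, with a log2 fold change between -0.16 and -0.33 over these and the other 11 settings tried. Among the authors' deposited values FGL1 had a log2 fold change of -0.224 and an adjusted p of 0.0776. Their mean for FGL1 was 4369, against 4500 over the 6 libraries here. Their statistics may thus rest on other values and are not a like-for-like check. Of the 10 hepatocyte markers, AFP, TTR, APOA1, SERPINA1, TF and ALB fell (the call of ALB was lost in 4 settings and that of TF when replicate c of either group was left out), while APOB (log2 fold change -0.036), AHSG (-0.058), HNF4A (-0.029) and RBP4 (0.15) did not pass. RBP4 was higher in each shCHROME library than in each EV library and was called higher in 3 of 16 settings. The part of these markers in the value of FGL1 was not tested. The annotated noncoding genes AC087273.1 and AC087273.2 overlap FGL1 on the opposite strand in GENCODE release 29; the strand setting of the counting is not given in the sources.

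FGA, whose chain carries the fibrinopeptide that thrombin removes first, stood at 9116, 11696 and 10219 normalized counts in EV replicates a, b and c. In shCHROME it stood at 10575, 9403 and 9904. The shCHROME values lay inside the range of EV. The means were 10343 ± 1294 and 9961 ± 588 (SD, n = 3 per group), with a log2 fold change of -0.049 (95% interval -0.20 to 0.11, limma adjusted p = 0.754). The interval spans 0.868 to 1.08 times the EV level, and the sign of the estimate turned when libraries were scaled to their totals (0.00093) or EV replicate b was left out (0.044).

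FGG, which encodes the gamma chain with binding sites for platelets and for other fibrin units, did not pass the test. It stood at 12952, 15557 and 14352 normalized counts in EV replicates a, b and c. In shCHROME it stood at 15801, 12997 and 14318. The groups overlapped almost wholly, at 14287 ± 1303 and 14372 ± 1403 (SD, n = 3 per group). The log2 fold change was 0.008 (95% interval -0.15 to 0.16, or 0.904 to 1.12 times the EV level, limma adjusted p = 0.969), and its sign turned without EV replicate a (-0.061) or shCHROME replicate a (-0.063).

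FGB encodes the beta chain, whose synthesis has been regarded as limiting for fibrinogen assembly in liver cells. It stood at 8406, 9657 and 8405 normalized counts in EV replicates a, b and c. In shCHROME it stood at 11107, 8912 and 9678. Replicate b of shCHROME was below replicate b of EV, so the groups overlapped, although the highest library was shCHROME replicate a. The means were 8823 ± 723 and 9899 ± 1114 (SD, n = 3 per group), with a log2 fold change of 0.16 (95% interval 0.01 to 0.32 for this gene alone, limma adjusted p = 0.183). The adjusted p stayed between 0.0561 and 0.52 over 16 other settings, and the estimate was 0.077 without shCHROME replicate a. Among the authors' deposited values the adjusted p was 0.841 for FGA, 0.381 for FGB and 0.986 for FGG. Their means for FGA, FGB and FGG were 9226, 8451 and 13376. Over the 6 libraries here the means were 10152, 9361 and 14329, so their fit may rest on other values.

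**Figure D1:**
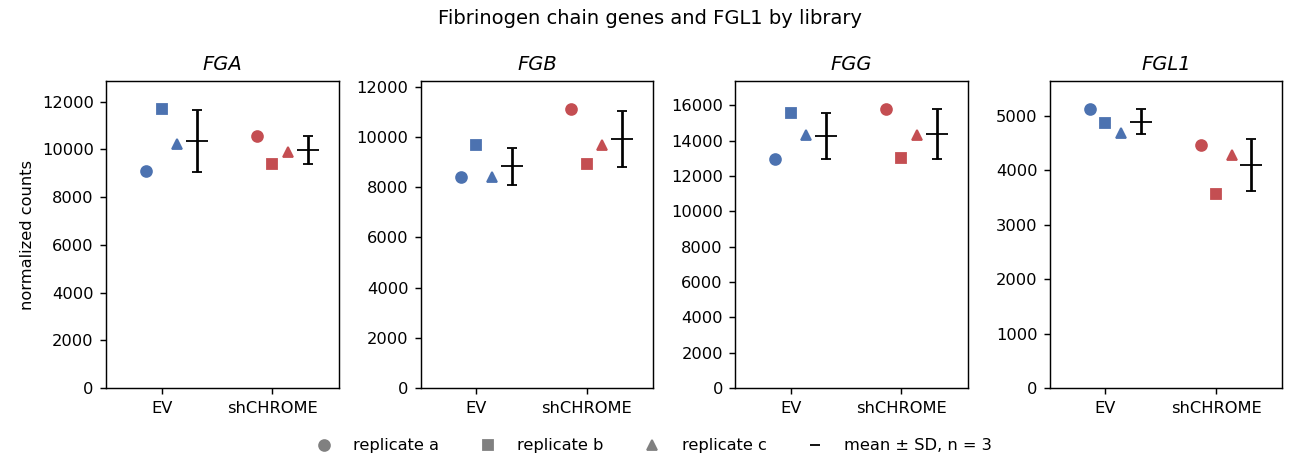
Normalized counts (vertical axes, from 0) of FGA, FGB, FGG and FGL1 in the 3 EV and 3 shCHROME libraries, one marker shape per replicate letter, with the mean and SD of each group beside the points. The groups overlap in the 3 chain genes, and in FGL1 the shCHROME libraries (3560 to 4470) lie below the EV libraries (4682 to 5131).

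The members varied more between libraries of a group than most abundant genes. The within-group SD of the log2 values was 0.141 for FGA, 0.14 for FGB, 0.137 for FGG and 0.132 for FGL1, against a median of 0.0754 over the 5987 genes with a mean of at least 1000 normalized counts. Between 7.38% and 9.7% of those genes had a larger SD than these members. Part of the variation was common to the chains. EV replicate a was low in all 3, at -0.15, -0.15 and -0.14 log2 units from the mean of each gene for FGA, FGB and FGG. EV replicate b was above the mean in all 3 (0.21, 0.05 and 0.12), shCHROME replicate a also (0.06, 0.25 and 0.15), and shCHROME replicate b was below it (-0.11, -0.06 and -0.14). In replicate c of each group FGB departed from the other chains. FGA, FGB and FGG were at 0.01, -0.15 and 0.01 in EV replicate c, and at -0.03, 0.06 and 0.0 in shCHROME replicate c. FGL1 did not follow the chains in EV replicate a, where it was at its highest (0.20), and was close to its mean in shCHROME replicate a. It shared their sign in EV replicate b (0.13) and shCHROME replicate b (-0.33).

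**Figure D2:**
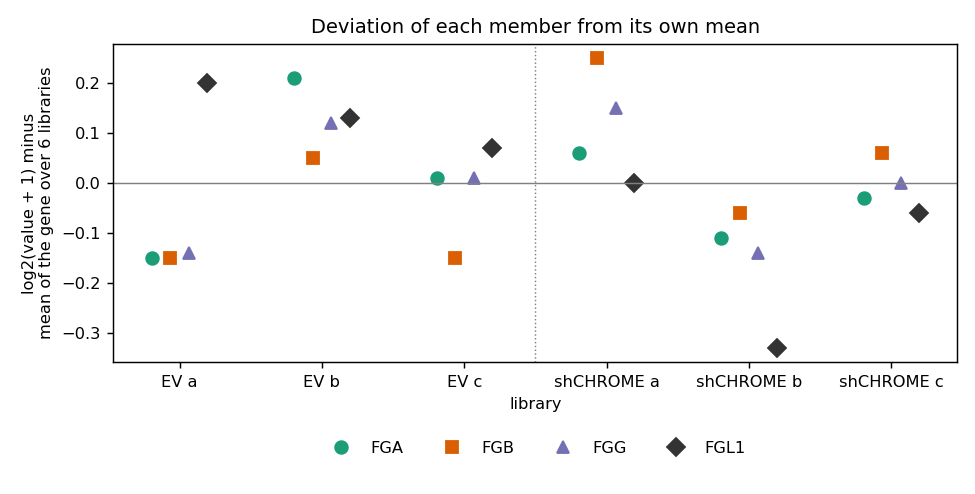
Each member's log2(value + 1) minus its own mean over the 6 libraries (vertical axis, log2 units), by library (horizontal axis), with EV left and shCHROME right of the dotted line. The chain genes lie together at -0.15 to -0.14 in EV replicate a, while FGL1 is at 0.20 there and at -0.33 in shCHROME replicate b.

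Likeness of profiles was measured as the root mean square difference of these centred log2 values over the 6 libraries, among the genes with a mean of at least 1000 normalized counts, and is a description. FGG was the fifth most alike to FGA of 5986 genes, with a difference of 0.0522, after DCUN1D5 (0.0353), CNTRL (0.0395) and MRPL46 (0.0505) among others. FGB was farther from both neighbours in the cluster: it ranked 926 for FGG (0.0902) and 2275 for FGA (0.127). The genes most alike to FGB were FTSJ3 (0.0283), QTRTD1 (0.0286) and TRMT6 (0.0325), and to FGG C1orf55 (0.0312), ANAPC13 (0.0338) and MTMR6 (0.0348). FGL1 was most like YPEL5 (0.0361), the glucuronosyltransferase gene UGT2A3 (0.0366) and C6orf211 (0.0372), and ranked 4674 or lower in likeness to each chain.

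Ratios within a library do not depend on how libraries are scaled. The ratios between FGB and each other chain did not overlap between the groups, while that of FGA to FGG did. The smallest p the exact test can give here is 0.1, so it cannot decide whether FGB differs from the other chains. The ratio of FGA to FGB in normalized counts was 1.08, 1.21 and 1.22 in EV replicates a, b and c. In shCHROME it was 0.952, 1.06 and 1.02. Each shCHROME value lay below each EV value, a 1.16-fold decrease of the mean ratio (log2 difference -0.21, within-group SD 0.085, exact two-sided permutation p = 0.1). FGB to FGG was 0.649, 0.621 and 0.586 in EV. In shCHROME it was 0.703, 0.686 and 0.676. Here each shCHROME value lay above each EV value, by 1.11-fold in the mean (log2 difference 0.16, within-group SD 0.056, exact two-sided permutation p = 0.1). The ratio of FGA to FGG overlapped between the groups, at 0.723 ± 0.026 in EV and 0.695 ± 0.027 in shCHROME (SD, n = 3 per group, exact two-sided permutation p = 0.3).

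FGL1 to FGB was 0.61, 0.505 and 0.557 in EV. In shCHROME it was 0.402, 0.399 and 0.443. It did not overlap and was 1.34-fold lower in shCHROME (log2 difference -0.42, exact two-sided permutation p = 0.1). With 3 libraries against 3 the smallest p this test can give is 0.1, so no ratio could pass 0.05; adjusted over the 4 ratios, the p was 0.133 for the 3 that did not overlap. Across the other genes tested, the ratio to FGB did not overlap between the groups in 24%, the ratio to FGG in 13.8% and the ratio to FGA in 13.9%, so ratios of this kind were common. Of the chains, only FGB, with the highest estimate (log2 fold change 0.16), was set against FGL1 in these ratios. By the counts, FGL1 relative to FGA was lower in EV replicate b (4876 to 11696) than in shCHROME replicate c (4283 to 9904). FGL1 to FGA thus overlapped between the groups, while FGL1 to FGG did not.

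As a share of the reads of the 3 chains, FGB took 27.6%, 26.2% and 25.5% in EV replicates a, b and c. In shCHROME it took 29.6%, 28.5% and 28.5%. The 95% Wilson interval of each share was at most 0.53 points to either side, which covers counting error only, and the lowest shCHROME share was above the highest EV share. FGA took 30.9% ± 0.89 in EV and 29.2% ± 0.91 in shCHROME, and FGG 42.7% ± 0.71 and 42.0% ± 0.40 (SD, n = 3 per group). Together the chains held 0.0936% to 0.114% of all reads in EV and 0.101% to 0.118% in shCHROME.

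**Figure D3:**
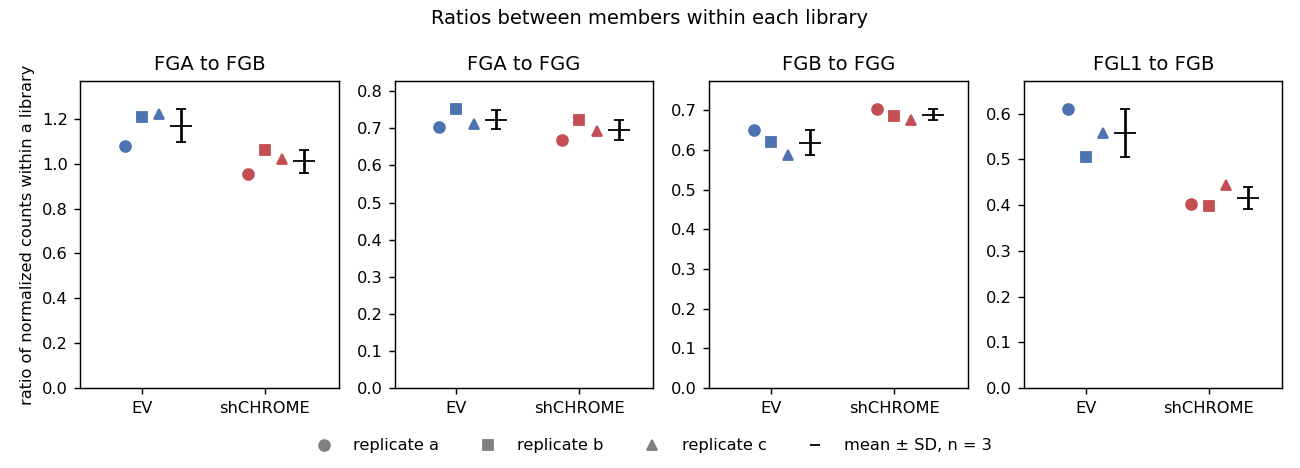
Ratio of normalized counts between 2 members within each library (vertical axes, from 0), for EV and shCHROME, with the mean and SD of each group beside the points. FGA to FGB and FGL1 to FGB are lower and FGB to FGG is higher in each shCHROME library than in each EV library, while FGA to FGG overlaps.

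Levels of different genes can be set side by side only per length. Per kilobase of the longest coding transcript in GENCODE release 29, FGG stood highest, at 8118 ± 741 normalized counts in EV and 8166 ± 797 in shCHROME (SD, n = 3 per group; 1760 bases). FGB followed at 4467 ± 366 and 5012 ± 564 (1975 bases). The place of FGA depended on the transcript. With the shorter form of 2248 bases it stood at 4601 ± 576 in EV, within the spread of FGB. In shCHROME that form stood at 4431 ± 262, below FGB in each library. With the extended form of 3678 bases FGA stood at 2812 ± 352 in EV and 2708 ± 160 in shCHROME. FGL1 was at 2489 ± 115 and 2087 ± 244 (1967 bases), the lowest in both groups, within the spread of the extended form of FGA in EV. Chain messages were thus present in unequal amounts, with FGG above FGB in each of the 6 libraries.

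The pathway around fibrinogen was followed in 7 lists with 85 distinct tested genes, of which 20 fell and 3 rose in shCHROME, 23.5% and 3.53% of them. Over all genes tested 6.87% fell and 3.64% rose, so the share that rose was near that background. The lists had a median log2 fold change of -0.13 against 0.009 over all genes tested; the counts of each list are to be read against the same shares. The number that fell was 13 without shCHROME replicate c. The lists share samples with the members and were not tested as sets. They were chosen with earlier results of these data known, so the share that fell is a description and not independent support.

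Among genes of fibrin formation and its inhibitors, 4 of 13 tested genes fell, 1 rose and 8 did not pass, with a median log2 fold change of -0.14. F10, the factor that activates prothrombin, was at 4620 ± 148 normalized counts in EV and fell 1.43-fold to 3243 ± 170 (SD, n = 3 per group; adjusted p from limma 1.92e-05). SERPIND1, or heparin cofactor II, a thrombin inhibitor, fell 1.28-fold to 12720 ± 380, from 16264 ± 305. TGM2, a tissue transglutaminase, fell 1.29-fold, and PROS1, the cofactor protein S, 1.17-fold. F13B, the carrier subunit of the fibrin cross-linking factor XIII, rose from 21.33 ± 7.33 to 48.24 ± 5.1, while F13A1, its catalytic subunit, was listed at 0 in each library. F2, which encodes prothrombin, was at 16491 ± 250 and 16414 ± 1057 (limma adjusted p = 0.955), and SERPINA5, a protein C inhibitor, had a log2 fold change of -0.14 (0.105). The calls of TGM2 and F13B were lost when replicate c of EV (limma adjusted p = 0.0592 and 0.0667) or of shCHROME (0.0591 and 0.0751) was left out. That of PROS1 was lost in 7 of 16 settings, without each library but shCHROME replicate a among them (up to 0.11).

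In fibrin breakdown, PLG and A2M fell among 9 tested genes, 1 rose and 6 did not pass (median log2 fold change -0.17). PLG, the precursor of the fibrin-cleaving enzyme plasmin, was between 151.6 and 189.2 normalized counts in EV and between 42.52 and 71.92 in shCHROME. A2M, a broad protease inhibitor that also takes up plasmin, fell by 0.52 on the log2 scale. SERPINF2, the plasmin inhibitor alpha-2-antiplasmin, had a log2 fold change of -0.14 (limma adjusted p = 0.119) and CPB2, which trims fibrin against lysis, of -0.26 (0.0981, or 0.0191 without shCHROME replicate c).

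Other genes with a fibrinogen-related domain were mostly low. Of 20, 11 were tested and 2 fell. ANGPTL4, which encodes an inhibitor of lipoprotein lipase, fell 1.43-fold, its normalized counts being 952.6 ± 162 in EV and 663.2 ± 82.9 in shCHROME (SD, n = 3 per group; adjusted p from limma 0.0054). The other 9 did not pass, and the median log2 fold change of the 11 was -0.26. The log2 fold change was 0.19 for ANGPTL2 (95% interval -0.16 to 0.54) and -0.17 for ANGPT2 (-0.53 to 0.19). FGL2, the other fibrinogen-like gene, was at 57.78 ± 6.06 normalized counts in EV and 46.99 ± 13.4 in shCHROME (SD, n = 3 per group), and the groups overlapped (log2 fold change -0.32, 95% interval -0.81 to 0.17). Of receptors of fibrinogen, fibrin and FGL1, 1 of 6 tested genes fell, the integrin subunit gene ITGAV, by 1.22-fold (limma adjusted p = 0.00653), with a median of -0.15. ITGB1 (0.012) and ICAM1 (-0.13) did not pass. The receptor gene LAG3 held 41 reads in EV and 19 in shCHROME, summed over libraries, too few for the test.

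Genes of folding and export from the endoplasmic reticulum, through which the chains pass, were lower in 6 of 12 cases, with all 12 estimates below 0 and a median log2 fold change of -0.19. SAR1B and SEC23A, of the coat of export vesicles, fell 1.28-fold and 1.23-fold (limma adjusted p = 0.000536 and 0.0016); SAR1B was at 5970 ± 133 normalized counts in EV and 4673 ± 230 in shCHROME (SD, n = 3 per group). The cargo receptor gene LMAN1 fell 1.24-fold, and the folding factors PDIA4 and HSP90B1 1.19-fold and 1.17-fold. CANX, a chaperone of glycoproteins, had a log2 fold change of -0.11 (0.344) and P4HB of -0.1 (0.243). The call of PDIA4 was lost without EV replicate a (0.0503) or shCHROME replicate c (0.0607). That of HSP90B1 was lost in 8 of 16 settings, without each library but shCHROME replicate a and with library totals among them (up to 0.0958).

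No gene of interleukin-6 signalling and of the factors that act on the fibrinogen promoters was called among 20 tested with limma, where 2 had an unadjusted p under 0.05; edgeR and DESeq2 called 0 also. The log2 fold change was -0.044 for IL6ST, the signalling receptor subunit (95% interval -0.17 to 0.08), -0.011 for CEBPB (-0.13 to 0.11) and 0.027 for STAT3 (-0.09 to 0.14). SOCS3, a feedback target of STAT3, was at 381.7 ± 62.7 and 400.7 ± 119 normalized counts (SD, n = 3 per group). CEBPA had a log2 fold change of -0.18 (limma adjusted p = 0.0684, and 0.0108 without shCHROME replicate b). The median of the list was -0.011.

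The other genes listed as acute phase did not move as one. Of 14 tested, 5 fell, 1 rose and 8 did not pass, with a median log2 fold change of -0.11. ITIH3, a hyaluronan-binding plasma protein, fell 1.51-fold (limma adjusted p = 1.33e-06), as did C4BPA, a complement inhibitor; ITIH3 was at 35297 ± 1172 normalized counts in EV and 23327 ± 542 in shCHROME (SD, n = 3 per group). HP, or haptoglobin, fell 1.3-fold and SERPINA1, or alpha-1-antitrypsin, 1.2-fold. SAA4, the constitutive serum amyloid A, rose 1.73-fold, from 142.5 ± 29.8 to 245.3 ± 31.9. Apart from SAA4, each called gene of the list fell. C3 had a log2 fold change of -0.14 (0.227) and SERPINA3 of -0.083 (0.62, or 0.0175 without shCHROME replicate a). The call of HP was lost without shCHROME replicate c (0.0577), and that of SERPINA1 when replicate c of EV (0.0521) or of shCHROME (0.0501) was left out.

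**Figure D4:**
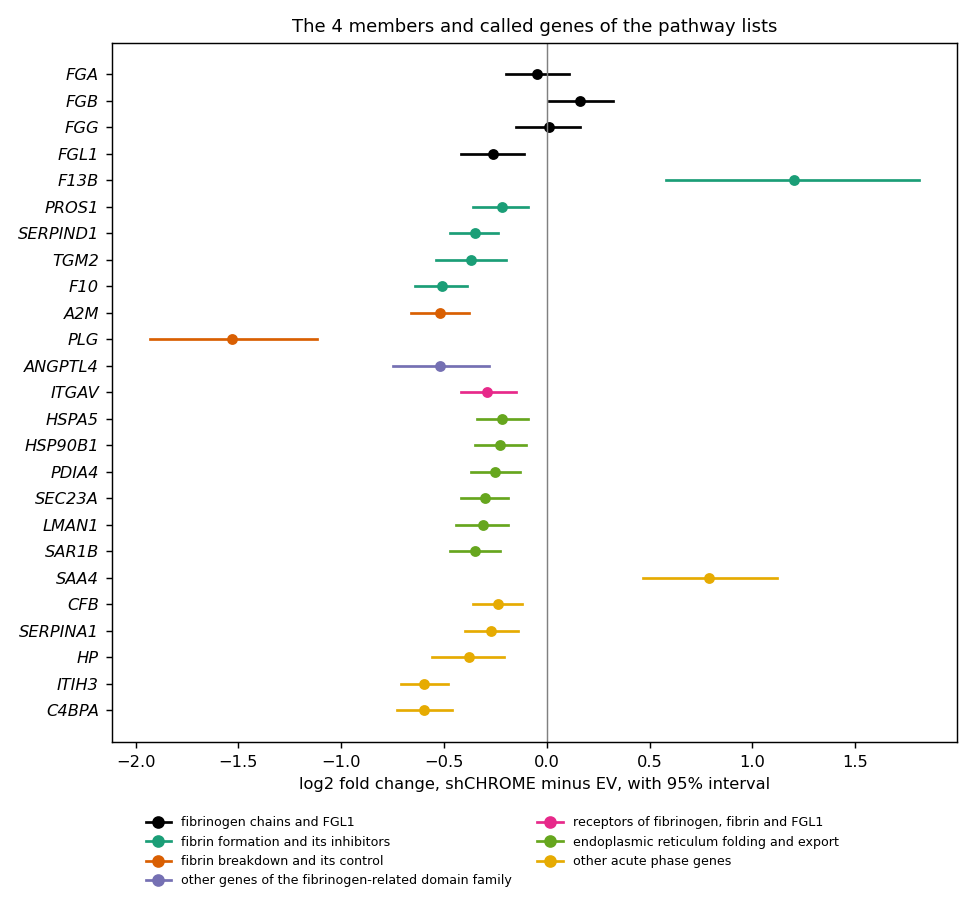
Log2 fold change (horizontal axis, shCHROME minus EV) with its 95% interval for the 4 members and for the called pathway list genes that are reported here, coloured by list. The intervals of FGA and FGG span 0, that of FGB runs from 0.01 to 0.32 before any adjustment, and F13B and SAA4 are the list genes shown above 0.

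Tested genes beside the members did not pass. Of the 5 coding genes on each side of the fibrinogen cluster in RefSeq, TLR2, PLRG1 and LRAT were tested, with log2 fold changes of 0.26, -0.075 and 0.22 and limma adjusted p of 0.51, 0.591 and 0.75. PLRG1, a spliceosome component and next to FGB in that order, stood at 1541 ± 49.5 and 1467 ± 130 normalized counts (SD, n = 3 per group). Beside FGL1, VPS37A, MTMR7, SLC7A2, PDGFRL, MTUS1, PCM1, ASAH1 and NAT1 were tested. Their log2 fold changes ran from -0.15 for NAT1 to 0.22 for MTMR7. The arginine transporter gene SLC7A2 had the lowest limma adjusted p of these, 0.148, with a log2 fold change of 0.13, opposite in sign to that of FGL1.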

How the data were processed

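The 6 HepG2 RNA-seq libraries are on hg19; the tools named are featureCounts 1.5.2, STAR 2.5 and DESeq2, its version listed as 3.4, per the submitters' processing notes. The authors deposited a signal per gene and library, read counts divided by a size factor, with a mean, a p-value, an adjusted p-value and a log2 fold change per gene. Of 24656 rows, 1288 repeats were dropped. Dividing each library by its smallest step (0.914083 to 1.114941) gave whole reads, to within 0.01, for 100% of values, so reads were recovered.

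The test was limma 3.58.1 (trend option, group the only term) on log2(value + 1), on genes kept by filterByExpr (edgeR 4.0.16), with two-sided Benjamini-Hochberg adjusted p over 14598 genes; this scale understates changes of low genes. edgeR quasi-likelihood and DESeq2 1.42.0 on recovered reads were alternatives, calling 1553 and 1637 genes against 1535. The limma script was tested on simulated data. It recovered 32% of 1.2-fold and 68% of 1.5-fold changes, and 5.9% of its calls were false. The simulation changed few genes, drawn from all levels of expression, and gave 153 calls against 1535 in the data. These rates need not hold for the data or for the members. A gene that did not pass may thus still differ by a small amount. Ratios had an exact permutation test over libraries (scipy 1.17.1). Replicates differed by more than sampling noise (chi-square per degree of freedom 5.721 to 17.04).

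The members and lists were chosen with earlier results of these data known. Named genes were the members, up to 5 called and 2 uncalled genes per list, the 3 profiles most alike each member and tested neighbours; FGL2, LAG3, STAT3, SOCS3, CEBPA, F13A1, and the low genes LBP, HRG, ITGB3, ITIH4 and PLAU were added after their values were seen. A few genes chosen this way were left out of the text and plots. Alternatives covered scaling (library totals, TMM, upper quartile, DESeq2 size factors), filters (1 read; 1 CPM in 3 libraries), a replicate block, a pseudocount of 0.1 and each library left out. Promoters came from RefSeq and transcript lengths from GENCODE release 29, both on another build than hg19, so no coordinates were joined.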

Additional observations from a re-analysis of the deposited data

How the results depend on the processing

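Over 16 alternatives, FGB and FGL1 kept their direction. FGB stayed uncalled in all of them, and FGL1 lost its call in 5. With library totals FGL1 was at -0.21 (limma adjusted p = 0.0627), FGA turned from -0.049 to 0.00093, and 936 genes were higher in place of 532. Without 1 library at a time, FGA ran from -0.14 to 0.044, FGG from -0.063 to 0.078, FGB from 0.077 to 0.24 and FGL1 from -0.33 to -0.16 (log2 fold change); genes higher ran from 245 to 528 and lower from 599 to 1051, against 1003; list genes lower ran from 13 to 25 and higher from 2 to 4. The ratio differences kept their sign without each library: -0.27 to -0.17 for FGA to FGB, -0.086 to -0.028 for FGA to FGG, 0.12 to 0.19 for FGB to FGG and -0.49 to -0.36 for FGL1 to FGB. The cause of these changes was not tested.

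No pairing of libraries by the letters a, b and c was seen. Deviations from the group means correlated at -0.047, -0.09149 and 0.04441 between libraries of the same letter. Between libraries of different letters the correlations ran from -0.08303 to 0.1294. With 3 libraries per group these values cannot exclude a pairing. The fit with a replicate block called 349 genes higher and 764 lower, and left FGL1 called (adjusted p = 0.0396). For the ratios, the block left the differences at -0.21, -0.057, 0.16 and -0.42 and gave p = 0.25 from an exact sign-flip test, the smallest it can give. With 3443 to 17019 reads per member and library, counting error was small beside the spread between libraries.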

Other observations

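Genes of the lists that were too low for the main test held values that a reader may wish to see. LBP, the lipopolysaccharide-binding acute phase protein, had 28 reads in EV and 3 in shCHROME, summed over libraries, and HRG, a histidine-rich glycoprotein that binds plasminogen and fibrinogen, had 50 and 12. With no filter beyond 1 read, limma gave LBP a log2 fold change of -2.44 (adjusted p = 0.00526) and HRG of -1.93 (adjusted p = 0.0307). In that setting the integrin subunit gene ITGB3, a platelet receptor of fibrinogen, had 4 and 15 reads (adjusted p = 0.0841), ITIH4 had 8 and 19 (0.199) and PLAU, the urokinase gene, 6 and 13 (0.278). At 3 to 50 reads per group, counting error limits each of these values.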
